A study of Mus musculus with 6 samples.

Results

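The genes described here encode the parts of the desmosome, with the plakin periplakin added: Dsp, Dsg2, Dsc2, Dsc3, Pkp1, Pkp2, Pkp3, Pkp4, Jup and Ppl. They were taken by name and not by a cut on measured values, though earlier results of these data were known. Each was read by 1 probeset with a single gene symbol, so that all 10 were measured among 19938 genes.

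A desmosome is a spot-like junction that ties the keratin filaments of neighbouring epithelial cells together. Outside the cell it is built of desmosomal cadherins, the desmogleins and desmocollins, which are relatives of E-cadherin. Inside the cell plakoglobin and the plakophilins, proteins with armadillo repeats, bind the cadherin tails, and desmoplakin links that plaque to the keratin filaments. Plakoglobin also serves in the adherens junction, the junction that E-cadherin itself forms.

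The cells were 6 mouse induced pluripotent stem (iPS) lines, each 1 clone picked as a colony on day 14. They came from OG2 mouse embryonic fibroblasts, given retroviruses for Sox2, Klf4, Oct4 and c-Myc in both groups. Control clones 2, 3 and 4 also received a short hairpin RNA (shRNA) against luciferase, and shECAD clones 4, 8 and 9 one against E-cadherin, so that n = 3 clones in each group. Both groups were split onto feeder cells on day 6 and kept on feeders, and the labels' protocols state that feeder cells were taken out ahead of the extraction. Each clone gave 1 array of log2 expression values, and the number of arrays limits the precision. The labels name separate cell lines but no separate infections, and the p-values therefore measure the spread between clones. A change is the shECAD mean less the control mean, in log2 units, and a gene was called where the limma p, adjusted over all genes, was below 0.05. In bulk RNA such as this, fewer cells of a type and less RNA per cell cannot be told apart.

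Across the arrays the median log2 value ran from 5.11 to 5.30. Cdh1, the E-cadherin gene and target of the shRNA, ranged from 9.07 to 9.60 over the control clones but from 6.75 to 7.81 over the shECAD clones (limma adjusted p = 0.00683), with 22.9% of the control level left (95% interval 15.2% to 34.4%). All 10 of the pluripotency markers Pou5f1, Nanog, Sox2, Zfp42, Esrrb, Tfcp2l1, Klf2, Dppa3, Tdgf1 and Lin28a lay at or above the median gene level. Limma called 0 of them, with 2, Tdgf1 and Esrrb, at an unadjusted p below 0.05. The largest changes among the 10, in the pluripotency transcription factor genes Esrrb and Tfcp2l1, were -0.81 and -0.55 with limma adjusted p-values of 0.181 and 0.38. Tdgf1 ran from 11.98 to 12.18 in the control clones and from 11.49 to 11.67 in the shECAD clones, highest of these in shECAD clone 9. Its change was -0.50 (limma adjusted p = 0.101). The mean log2 level of the 10 markers ran from 9.04 to 9.27 in the control clones and was 9.09 and 9.16 in shECAD clones 4 and 8 but 8.72 in shECAD clone 9. That clone had the lowest value of the 6 for Esrrb (6.92), Tfcp2l1 (6.74), Sox2, Nanog and Pou5f1. It had the highest for Lin28a (9.45) and Dppa3 (6.98), and neither for Zfp42, Klf2 and Tdgf1. Leaving out shECAD clone 9 gave changes of -0.485 for Esrrb and -0.19 for Tfcp2l1.

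Of the 10 desmosome and plakin genes, 1 was called higher in the shECAD clones, 0 were called lower and 9 did not pass the limma test, where 3.12% of all genes were called. The called gene was Dsp. The limma p before adjustment was below 0.05 in 2 of the 10, Dsp and Dsc2, and in 18% of all genes. Changes were positive in 8 members and negative in 2, Dsg2 and Pkp4, against positive changes in 53.7% of all genes. The median change of the members was 0.30 and that of all genes 0.025. Without control clone 3 the members' median was 0.11.

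**Figure D1:**
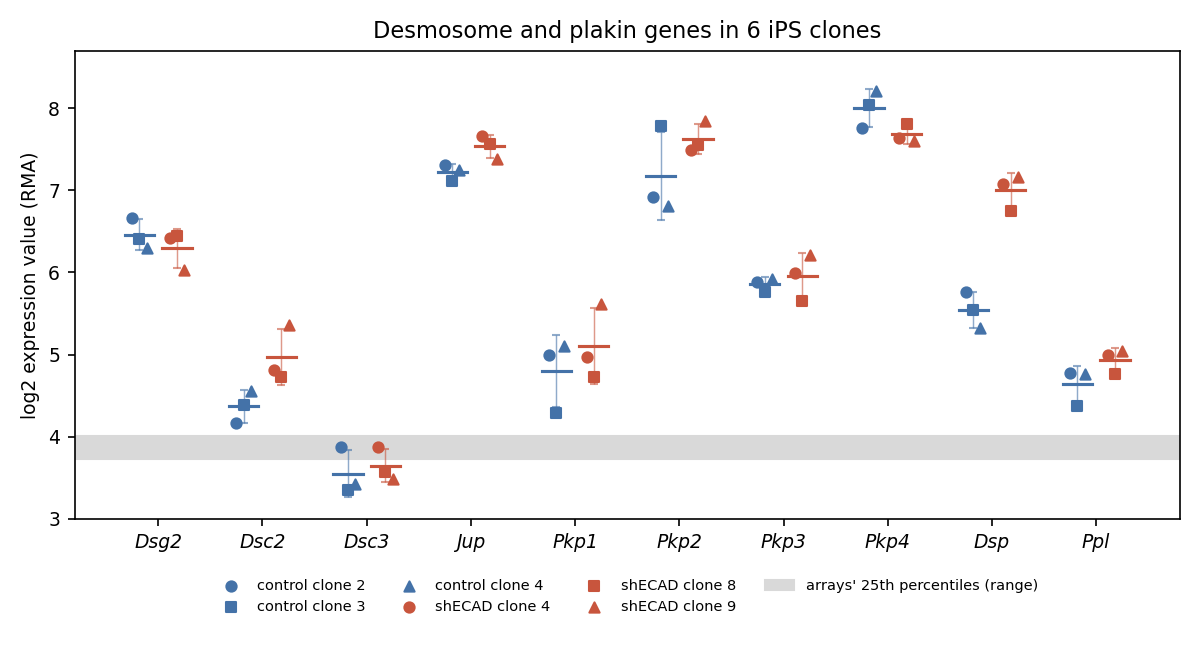
Log2 expression values (vertical axis) of the 10 members in each of the 6 clones, with control clones in blue and shECAD clones in red. Horizontal bars are group means, error bars are 1 SD over 3 clones, and the grey band spans the 25th percentiles of the 6 arrays, 3.73 to 4.01; the Dsp values separate widely by group, while those of Dsc3 lie low in both groups.

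Desmoplakin, the product of Dsp, is the obligate plaque protein of desmosomes and the one that reaches the keratin filaments. In control clones 2, 3 and 4 Dsp was at 5.77, 5.54 and 5.32, whereas shECAD clones 4, 8 and 9 had 7.08, 6.75 and 7.16. All 3 shECAD values lay above all 3 control values, and the gap between the groups was wider than the spread inside either. The means were 5.54 ± 0.22 and 6.999 ± 0.22 (SD, n = 3 each). Dsp rose 2.74-fold (95% interval 2.09 to 3.61), a log2 change of 1.46 ± 0.18 (SE) with a limma adjusted p of 0.00617. Among all genes the size of this change stood at the 99.5th percentile. A two-sided exact permutation test gave p = 0.1, which is the smallest p that 3 clones against 3 allow. With any 1 clone left out, the Dsp change stayed between 1.35 and 1.58 and was called each time. Without variance moderation the limma adjusted p was 0.182, and in that fit 3 of all genes were called.

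Jup and Dsp encode direct binding partners in the plaque. Both had values that did not overlap between the groups, as had Dsc2, with shECAD above control. The same held for 11.1% of all genes, and Jup was not called. The promoter windows of Dsp and Jup are shown so that the regions before and around the transcription starts can be compared. Windows on the chromosome that carries Dsg2, Dsc2 and Dsc3 were left out of this step by choice. Among the other windows, a match by symbol was found for 3 of the 10 members, Dsp, Jup and Pkp4. They are those of RefSeq on GRCm38.p6, from 250 bases before to 50 bases after an annotated start, written 5′ to 3′ on the gene's strand. The Dsp window is chr13:38151044-38151343 on the plus strand and the Jup window chr11:100397741-100398040 on the minus strand. Capitals mark the GC box GGGCGG, the E-box CAGGTG that Snail and Zeb repressors can bind, and the reverse complements of both, CCGCCC and CACCTG.
Dsp: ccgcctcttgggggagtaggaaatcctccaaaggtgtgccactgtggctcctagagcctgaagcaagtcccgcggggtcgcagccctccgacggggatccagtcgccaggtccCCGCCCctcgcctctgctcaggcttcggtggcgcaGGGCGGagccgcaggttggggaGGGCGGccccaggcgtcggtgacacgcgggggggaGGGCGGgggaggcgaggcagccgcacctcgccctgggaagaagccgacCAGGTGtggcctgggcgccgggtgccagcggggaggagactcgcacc
Jup: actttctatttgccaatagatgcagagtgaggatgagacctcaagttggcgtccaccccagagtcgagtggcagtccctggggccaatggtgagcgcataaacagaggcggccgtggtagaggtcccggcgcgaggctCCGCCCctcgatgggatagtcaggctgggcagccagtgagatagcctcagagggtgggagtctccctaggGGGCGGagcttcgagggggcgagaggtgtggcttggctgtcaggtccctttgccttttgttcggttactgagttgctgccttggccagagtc
The Dsp window held 4 GC boxes and 1 E-box, the latter starting at base 254 of the window, just past the annotated start. The Jup window held 2 GC boxes and 0 E-boxes. The grainyhead-like motif AACCGGTT, which reads the same on both strands, was in neither window. Among the 32851 promoter windows of this length, some of which belong to the same gene or overlap, 35.7% held a GC box on either strand, 20.2% the E-box and 0.146% the grainyhead-like motif. The GC content was 73.0% in the Dsp window and 60.7% in the Jup window. Of the 2 Pkp4 windows, 1 held 6 GC boxes, some of which overlap, and the other held 1 E-box. A match describes the letters of a window and shows no binding.

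Jup encodes plakoglobin, which binds the tails of desmosomal cadherins and of E-cadherin. Control clones 2, 3 and 4 had Jup values of 7.31, 7.12 and 7.25, and the values of shECAD clones 4, 8 and 9 were 7.66, 7.57 and 7.38. The groups did not overlap, but shECAD clone 9 lay 0.068 above the highest control clone. The change was 0.31 ± 0.15 (SE), from 7.23 ± 0.097 to 7.53 ± 0.14 (SD), and did not pass the test (limma adjusted p = 0.323). Its 95% interval, -0.03 to 0.65 on the log2 scale, leaves room for a rise of up to 1.57-fold.

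The desmosomal cadherins measured as members were Dsg2, Dsc2 and Dsc3. Dsg2 and Dsc2 encode the desmoglein and desmocollin of simple epithelia, whereas Dsc3 belongs to the lower layers of stratified epithelia such as skin. The log2 value of Dsc2 was 4.16 in control clone 2, 4.39 in control clone 3 and 4.56 in control clone 4, while it was 4.82, 4.73 and 5.36 in shECAD clones 4, 8 and 9. Its groups did not overlap, and shECAD clone 9 stood above the other two shECAD clones. The Dsc2 change was 0.60 ± 0.20 (SE), or 1.52-fold with a 95% interval of 1.12 to 2.06. It did not pass over all genes (limma adjusted p = 0.138), though the unadjusted limma p was 0.0123. All Dsc2 values were below the median gene level of 5.40. Leaving out shECAD clone 9 gave a change of 0.40, and leaving out control clone 2 or 4 gave 0.50 and 0.70.

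In control clones 2, 3 and 4 Dsg2 was at 6.67, 6.41 and 6.30, whereas shECAD clones 4, 8 and 9 had 6.42, 6.45 and 6.02. The groups overlapped, with the lowest value in shECAD clone 9 and the highest in control clone 2. The Dsg2 change was -0.16 ± 0.18 (SE, limma adjusted p = 0.688), with a 95% interval from -0.55 to 0.23. It was -0.023 without shECAD clone 9 and -0.057 without control clone 2. Dsc3 ranged from 3.35 to 3.87 over the control clones and from 3.49 to 3.88 over the shECAD clones. Every one of these 6 values was below the 25th percentile of its own array, the level of the dimmest probesets, and the change of 0.10 ± 0.19 (SE) changed sign without shECAD clone 4 (-0.014).

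The desmosomal cadherin genes lie side by side, and RefSeq places 9 of them in a row with no other protein-coding gene between them, in the order Dsc3, Dsc2, Dsc1, Dsg1c, Dsg1a, Dsg1b, Dsg4, Dsg3 and Dsg2. Measured values were used here for 7 of the 9. Dsg1c, Dsg1b, Dsg4 and Dsg3, desmogleins of stratified epithelia and hair, had mean levels in the control clones of 2.60, 3.69, 3.44 and 3.41. Their changes were 0.15, 0.37, -0.11 and 0.087, and the lowest of their limma adjusted p-values was 0.515, for Dsg1b. The control means all lay below the 25th percentiles of the arrays (3.73 to 4.01), though Dsg1b reached 4.58 in shECAD clone 4. Levels this low limit what can be said of these desmogleins. Dsc1 and Dsg1a were not analysed here.

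Plakophilins bind desmoplakin and gather it at the membrane, and 4 genes of that kind were members. Pkp2 is the plakophilin of simple epithelia and heart. Control clones 2, 3 and 4 had Pkp2 values of 6.92, 7.79 and 6.81, against 7.49, 7.55 and 7.84 for shECAD clones 4, 8 and 9. The groups overlapped because control clone 3 lay within the shECAD range. The Pkp2 change was 0.45 ± 0.25 (SE, limma adjusted p = 0.368). Without control clone 3 it was 0.76 with a limma adjusted p of 0.0788, and without control clone 4 it was 0.27 with an adjusted p of 0.678.

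Pkp4 encodes a plakophilin relative, also named p0071, that is found at both adherens junctions and desmosomes. Control clones 2, 3 and 4 had Pkp4 values of 7.75, 8.04 and 8.21, and the values of shECAD clones 4, 8 and 9 were 7.64, 7.81 and 7.60. Control clone 2 lay below shECAD clone 8, so the groups overlapped. The Pkp4 change, -0.32 ± 0.17 (SE), was the most negative of the 10 members and did not pass the test (limma adjusted p = 0.351).

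Pkp1 is the plakophilin of the upper epidermis, and Pkp3 that of most epithelia. The log2 value of Pkp1 was 4.999 in control clone 2, 4.29 in control clone 3 and 5.11 in control clone 4, while it was 4.97, 4.72 and 5.62 in shECAD clones 4, 8 and 9. Its values spread over 0.82 in the control clones and over 0.90 in the shECAD clones, both more than the change of 0.31 ± 0.27 (SE, limma adjusted p = 0.598). Leaving out shECAD clone 9 or 8 made the Pkp1 change 0.049 or 0.498, and leaving out control clone 3 made it 0.053. Pkp3 ran from 5.76 to 5.92 in the control clones and from 5.65 to 6.22 in the shECAD clones, so that the control range lay inside the shECAD range. The Pkp3 change was 0.10 ± 0.18 (SE, limma adjusted p = 0.812), and without shECAD clone 9 it was -0.030.

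Ppl encodes periplakin, a relative of desmoplakin in the cornified envelope and at desmosomes of stratified epithelia. In control clones 2, 3 and 4 Ppl was at 4.77, 4.38 and 4.77, whereas shECAD clones 4, 8 and 9 had 4.99, 4.76 and 5.05. The groups overlapped by a narrow margin, since shECAD clone 8 lay just below control clones 2 and 4. The Ppl change was 0.29 ± 0.17 (SE, limma adjusted p = 0.399), and 0.16 without control clone 3.

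**Figure D2:**
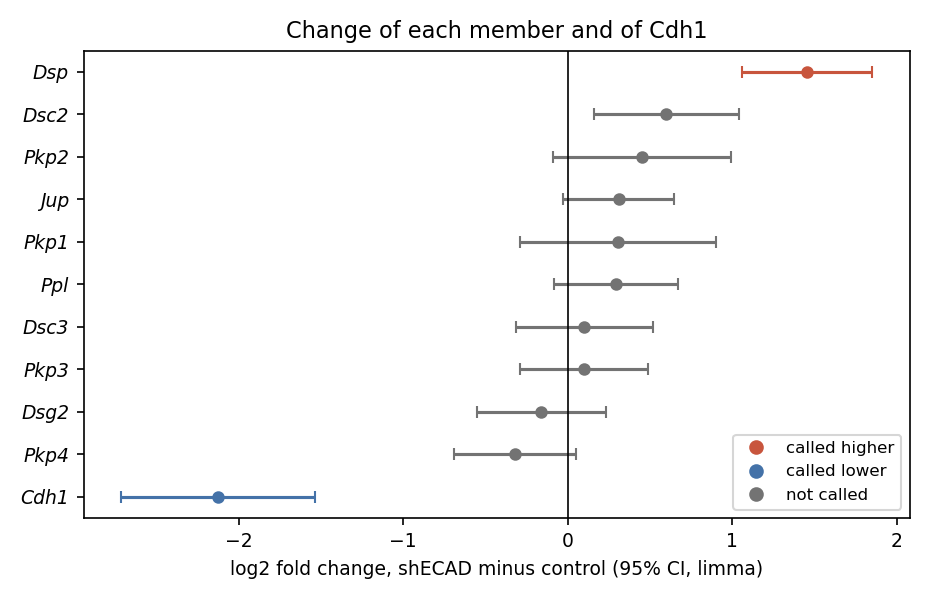
Log2 fold change of each member and of Cdh1 (horizontal axis, shECAD minus control) with 95% confidence intervals from limma, n = 3 clones per group. Dsp at 1.46 and Cdh1 at -2.13 are the called genes, and the intervals of 8 of the remaining 9 members include 0, with Dsc2 (0.16 to 1.04) as the exception.

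Clone values did not overlap in 3 of the 10 members, Dsp, Dsc2 and Jup, all with shECAD above control. Over all genes the values did not overlap in 23.6%, and in 11.1% with shECAD above control. By clone, shECAD clone 9 had the highest value of the 6 in 6 members (Dsp, Dsc2, Pkp1, Pkp2, Pkp3 and Ppl) and the lowest in 2 (Dsg2 and Pkp4). Control clone 3 had the lowest value in 4 members (Dsc3, Pkp1, Jup and Ppl) and the highest in 0. Their arrays also had the highest (5.30) and the lowest (5.11) median of the 6. Over all genes, shECAD clone 9 was highest in 28.7% and control clone 3 lowest in 25.7%. After centring each array on its median, shECAD clone 9 was highest in 5 members and control clone 3 lowest in 3. The members varied among clones of the same group too, and the spread in shECAD was wider than in control for Dsc2 (0.63 against 0.40) and narrower for Pkp2 (0.35 against 0.97).

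The change of Dsp was also set against that of each other member within the same array, as a description with no test. Dsp was taken for this step because it had the largest change, so that Dsp minus any other member had to be higher in the shECAD clones, and the 9 comparisons share the same Dsp values. The shift ran from 0.86 against Dsc2 to 1.78 against Pkp4 on the log2 scale. Against its partner Jup it was 1.15, from -1.68 ± 0.21 to -0.54 ± 0.30 (SD, n = 3 each). The level of one probeset says nothing about the level of another, and only the shifts can be read.

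**Figure D3:**
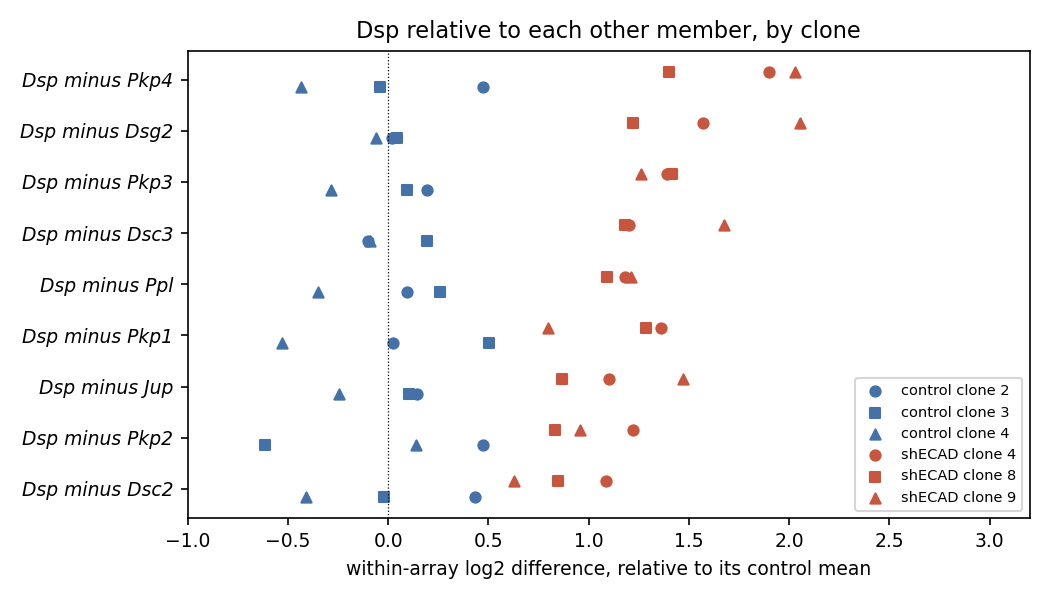
Dsp minus each other member within each array (horizontal axis, log2 units, with the mean of the 3 control clones set to 0), by clone. In all 9 rows the 3 shECAD clones (red) lie to the right of the 3 control clones (blue); mean shifts run from 0.86 for Dsc2 to 1.78 for Pkp4.

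Genes related to the desmosome by role were taken as 6 lists with 50 measured genes: other desmosomal cadherins and partners, other plakins, the hemidesmosome, keratins and other intermediate filaments, armadillo relatives, and regulators of desmosomal genes. Of the 50 genes, 5 were called higher (Krt18, Krt19, Krt8, Snai2 and Plec), 2 lower (Lama3 and Itga6) and 43 did not pass. Over all genes 1.9% were called higher and 1.23% lower. The median change of the 50 was 0.16. Leaving out control clone 2, 3 or 4 gave 6, 4 and 2 calls in turn, and leaving out shECAD clone 4, 8 or 9 gave 3, 3 and 4. Not all of these calls were among the 7. Without control clone 2, Plec and Lama3 lost their calls, while 4 intermediate filament genes were called. Without control clone 3, Snai2 lost its call and another regulator gene was called.

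Keratins are the filaments that desmoplakin anchors, and 3 of the 13 intermediate filament genes were called, all higher. They were Krt8, Krt18 and Krt19, the keratins of simple epithelia. Control clones 2, 3 and 4 had Krt18 values of 6.15, 6.56 and 5.58, and the values of shECAD clones 4, 8 and 9 were 7.99, 7.83 and 9.02, a change of 2.18 ± 0.32 (SE, limma adjusted p = 0.0115). Krt8 ranged from 6.65 to 6.83 over the control clones and was at 8.14, 7.99 and 9.62 in the same shECAD clones, with shECAD clone 9 again the highest. Without shECAD clone 9 the changes were 1.81 for Krt18, 1.64 for Krt19 and 1.34 for Krt8, and Krt8 was not called without control clone 3 or 4 (limma adjusted p = 0.0594 and 0.0784). Krt5 and Krt14, the keratin pair of basal stratified epithelia, had changes of -0.059 and 0.12, and the changes of the muscle filament gene Des and of Vim were 0.18 and 0.85 (limma adjusted p = 0.619 and 0.119). Vim was at 10.52, 9.52 and 9.35 in control clones 2, 3 and 4 and from 10.57 to 10.70 in the shECAD clones.

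Among 5 other plakin genes 1 was called, Plec, which encodes plectin, a linker of intermediate filaments to hemidesmosomes and other anchoring sites. The log2 value of Plec was 6.96 in control clone 2, 6.82 in control clone 3 and 6.53 in control clone 4, while it was 7.55, 7.48 and 7.37 in shECAD clones 4, 8 and 9. It rose by 0.70 ± 0.16 (SE) with a limma adjusted p of 0.0493. The call was lost when any 1 clone was left out (limma adjusted p from 0.0523 to 0.193) and after centring each array on its median (0.0739). Envoplakin (Evpl), which pairs with periplakin, had a change of 0.078, and Dst, Eppk1 and Macf1 had changes of 0.0997, 0.083 and -0.33, none of which passed (limma adjusted p = 0.864, 0.766, 0.867 and 0.31 in that order).

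The hemidesmosome anchors keratin filaments to the basement membrane and shares no cadherin with the desmosome. Of 6 measured genes, 2 were called lower and 0 higher. Lama3, which encodes a laminin 332 chain, fell by 1.01 ± 0.21 (SE, limma adjusted p = 0.0339), and Itga6, the gene of integrin alpha 6, fell by 0.84 ± 0.18 (limma adjusted p = 0.0385). Lama3 kept its call only without control clone 3 and Itga6 only without control clone 2 among the 6 fits that left out 1 clone. The integrin partner gene Itgb4 and Col17a1 had changes of -0.13 and 0.22 and did not pass.

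Among 8 other desmosomal cadherins and partners limma called 0, with 1, Perp, at an unadjusted p below 0.05. Perp, a membrane protein gene needed for desmosomes in stratified epithelia, had the largest change, 0.66 ± 0.18 (SE, limma adjusted p = 0.0791), with values of 6.88, 6.52 and 6.56 for control clones 2, 3 and 4, against 7.56, 7.29 and 7.08 for shECAD clones 4, 8 and 9. The groups did not overlap. Perp passed the test with array weights (limma adjusted p = 0.027) and among genes at or above the median level (0.0482). It did not pass after centring each array on its median (0.107), nor with any 1 clone left out (limma adjusted p from 0.0715 to 0.239). Of the 5 armadillo relatives limma called 0, with 0 at an unadjusted p below 0.05, and Ctnnb1, Ctnnd1 and Ctnna1, the genes of beta-, p120- and alpha-catenin, which sit under E-cadherin, had changes of 0.056, 0.045 and -0.052. The largest changes in that list were 0.29 for Ctnnd2 and -0.13 for Arvcf, both p120-catenin relatives.

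Of 13 regulators of desmosomal and epithelial genes 1 was called, Snai2, which encodes the repressor Slug and rose by 0.98 ± 0.21 (SE, limma adjusted p = 0.0347). Its call was lost without control clone 3 or 4 and without shECAD clone 4 or 8, with limma adjusted p-values up to 0.141. An unadjusted limma p below 0.05 was reached by 6 of the 13, Snai2, Esrp1, Twist1, Klf5, Grhl2 and Ovol1. The epithelial splicing regulator gene Esrp1 had a change of 1.08 ± 0.29 (SE), with a limma adjusted p of 0.0783. The changes of Twist1, a mesenchymal regulator gene, Klf5 and the epithelial repressor gene Ovol1 were 0.58, -0.56 and 0.44 (limma adjusted p = 0.0811, 0.225 and 0.273). Grhl2, Grhl1 and Grhl3, genes of grainyhead-like activators of junction genes, had changes of 0.54, 0.068 and -0.15, and none passed (limma adjusted p = 0.245, 0.851 and 0.723). The repressor genes Snai1, Zeb1 and Zeb2 had changes of 0.43, -0.097 and 0.41 and did not pass either (limma adjusted p = 0.294, 0.839 and 0.352).

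**Figure D4:**
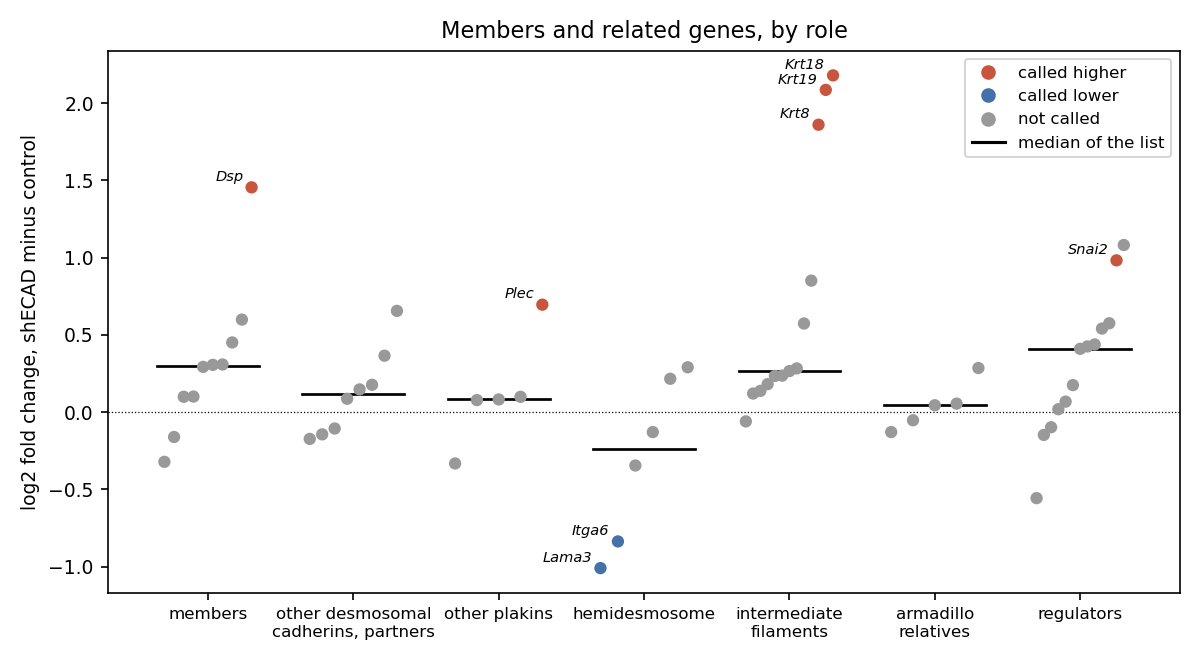
Log2 fold changes (vertical axis, shECAD minus control) of the 10 members and of the 50 related genes by role, 1 point per gene, with black bars at list medians. Red points were called higher and blue points lower in limma, and the called genes are named: Dsp among the members, Krt8, Krt18 and Krt19 among filaments, Plec, Snai2, Lama3 and Itga6.

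Markers of other cell types were read beside the rise of Dsp. Of 20 fibroblast and feeder markers, 13 were called higher and 0 lower, led by Lox, a collagen cross-linking enzyme gene, and Postn (changes of 2.35 and 2.26, limma adjusted p = 0.007 and 0.00282), followed by Ccdc80, Col1a1 and Col1a2 with 2.05, 1.97 and 1.84. The mean log2 level of this list ran from 5.66 to 6.66 in the control clones and from 7.28 to 7.55 in the shECAD clones, and 16 of the 20 lay at or above the median gene level. The change was negative in 1 of the 20, Lum (-0.23), which was among the 7 that did not pass. Dcn and Pdgfra, with changes of 0.48 and 0.38, did not pass either (limma adjusted p = 0.547 and 0.595). The 13 calls became 15 without control clone 2 and 9 without shECAD clone 9. They became 7 without control clone 3, 6 without control clone 4 or shECAD clone 4, and 4 without shECAD clone 8. Col1a1 lost its call without shECAD clone 8 (limma adjusted p = 0.0661), and Col1a2 without any clone other than control clone 2 (0.0503 to 0.0919). Of the 6 simple epithelium markers 4 were called higher (Krt8, Krt18, Krt19 and the claudin gene Cldn4), and the list mean ran from 6.60 to 6.69 in the control clones and from 7.65 to 8.40 in the shECAD clones. The keratin calls are the same ones counted above among the intermediate filament genes. Krt7 is in the filament, simple epithelium and trophoblast lists, so these lists are not separate evidence. The 4 calls became 2 without control clone 3, and Cldn4 was not called there or without any 1 shECAD clone (limma adjusted p from 0.0586 to 0.0724). Krt7 and Epcam did not pass, with changes of 0.57 and -0.15 (limma adjusted p = 0.131 and 0.716). Of 8 stratified epidermis markers limma called 0, with 0 at an unadjusted p below 0.05, the largest changes being 0.37 for Ivl and 0.29 for Lor, both cornified envelope genes. The list mean of these markers ran from 4.56 to 4.87 in the control clones and from 4.69 to 5.18 in the shECAD clones. Of 8 endoderm markers limma called 0, with 3 at an unadjusted p below 0.05. Their list means ran from 4.69 to 5.15 in control and from 5.12 to 5.47 in shECAD clones, and the largest changes were 0.99 for Dab2 and 0.59 for Gata6 (limma adjusted p = 0.0536 and 0.241). Dab2 passed with array weights (limma adjusted p = 0.0222), an intensity trend (0.037), genes at or above the median level (0.0408) and control clone 2 left out (0.0491), and its change was 0.48 (0.17) as the mean of its probesets. Without control clone 4 the Gata6 change was 0.38. Of 8 trophoblast markers limma called 0, with 1, Krt7, at an unadjusted p below 0.05. Their list means ran from 4.82 to 5.01 in control and from 5.03 to 5.29 in shECAD clones, and the change of Eomes, next after that of Krt7, was 0.56. Eomes stood at 6.37 in shECAD clone 9 and at 5.18 and 5.14 in shECAD clones 4 and 8, and without shECAD clone 9 its change was 0.16. The part of any of these cells in the Dsp result was not tested.

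The genes whose levels followed Dsp most closely over the 6 arrays, among 9968 genes at or above the median level, were Cck, Slc16a3 and Ripk4. They encode the peptide cholecystokinin, a lactate transporter and a kinase of epidermal differentiation, and their Pearson correlations with Dsp were 0.995, 0.995 and 0.994 over 6 arrays. Cck rose by 1.28, Slc16a3 by 1.34 and Ripk4 by 0.86 (limma adjusted p = 0.007, 0.0046 and 0.0223). Dsp differs between the groups, and the ranking by correlation therefore favours genes that differ between them too. The Ripk4 call was lost without control clone 3 or 4 and without any 1 shECAD clone, with limma adjusted p-values up to 0.1.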

How the data were processed

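Total RNA of 6 iPS clones was measured on 1 Affymetrix whole-transcript array each, from 100 ng of RNA per the labels' protocols. The authors deposited log2 values, 1 per probeset. The submitters' processing notes name RMA and Partek; the version and settings of each were not given in the sources used here, nor was a genome build. No further normalization was applied. Of 28853 probesets, 21789 had 1 gene symbol in the platform annotation, and 21698 of these matched RefSeq by Entrez identifier. The brightest probeset stood for each of 19938 genes, with no filter on dim ones. Groups were compared with limma 3.58.1 in R 4.3.3 (lmFit and eBayes, no covariate), with Benjamini-Hochberg adjustment over all genes. The members, lists and motifs were chosen with earlier results of these data known. Named genes are all members, Cdh1, up to 5 called genes of each list or else the 2 with the largest change, and the 3 nearest to Dsp by correlation. Other genes in the text were taken from these lists after their values were seen. Simulated data with known changes were used to test the fit. Figures were drawn with matplotlib 3.10.9.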

Additional observations from a re-analysis of the deposited data

How the results depend on the processing

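The Dsp rise kept its direction in all 15 alternatives, with values from 1.35 to 1.58, and its call in 14 of them. Only centring, quantile normalization, array weights and leaving out a clone could alter a member's change. The other alternatives kept the changes of the members they included as in the main fit, so direction was fixed there. A threshold of 0.1 could not lose a call made at 0.05. Of the 10 members, 8 kept their direction in every alternative run and 2 changed it once, Dsc3 without shECAD clone 4 and Pkp3 without shECAD clone 9, so that with 1 clone left out their changes ran from -0.014 to 0.26 and from -0.030 to 0.25. Without variance moderation limma called 0 members, 0 of the 50 related genes and 3 of all genes, with 3595 genes at an unadjusted p below 0.05 in the moderated fit, and the cause was not tested. Array weights gave 1067 calls over the whole array and a looser threshold of 0.1 gave 1278, against 623. Leaving out 1 clone gave 1 member called each time, 2 to 6 related genes, 146 to 543 calls over all genes and a members' median from 0.11 to 0.34. Centring each array on its median moved the split of all calls to 303 higher and 377 lower, from 378 and 245, and genes at or above the median level gave 379 and 402. No paired analysis was run because the labels name no pairing between control and shECAD clones. Levels of Dsc3 below the 25th percentile of every array limit what can be said of it.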
